A study of Mus musculus with 4 samples.

Results

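The cartilage collagens described here are the 8 genes Col2a1, Col9a1, Col9a2, Col9a3, Col11a1, Col11a2, Col10a1 and Col27a1, chosen by name from the 32285 genes that each of the 4 matrices lists, and all 8 were found. Droplet-based single-cell RNA sequencing had been run on fracture callus and on trabecular bone of 20-week-old C57BL/6J male mice at week 2. For each tissue there was 1 control library, from mice given placebo, and 1 glucocorticoid (GC) library, from mice given prednisolone at 6.25 mg/kg/d. The labels describe slow-release pellets for all samples, whereas the methods of the study describe daily injection in the fracture model, so the route in the callus libraries is uncertain. How many mice went into a library is not given in the sources used here. With 1 library per tissue and condition no difference between GC and control could be tested against replicate spread, and every interval below is a 95% interval for counting error only.

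Cartilage collagen is laid down as thin fibrils of collagen II with collagen XI inside them and collagen IX on their surface. Col2a1 encodes the single chain of collagen II, and its product is also a chain of collagen XI beside those of Col11a1 and Col11a2. Col9a1, Col9a2 and Col9a3 encode the chains of collagen IX, a collagen with interrupted triple helices that decorates the fibril. Col10a1 encodes collagen X, the network-forming collagen by which hypertrophic cartilage is recognised, and Col27a1 encodes a further fibrillar collagen of cartilage. In fracture repair, a cartilage callus forms first and is replaced by bone after its chondrocytes become hypertrophic.

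On GRCm38, the genes matched by Ensembl identifier in GENCODE M21 lie at chr15:97975602-98004695 on the minus strand (Col2a1), chr1:24177610-24252684 (Col9a1), chr4:121039385-121055322 (Col9a2), chr2:180597790-180622189 (Col9a3), chr3:114030540-114220718 (Col11a1), chr17:34039437-34066685 (Col11a2), chr10:34389981-34397085 (Col10a1) and chr4:63214004-63334991 (Col27a1). The last 7 lie on the plus strand. Counts were of whole genes, read from the 3′ end of transcripts, so no exon, isoform or start site is told apart.

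RefSeq promoter windows on GRCm38.p6, from 250 bases before to 50 bases after a start site, were listed for 6 of the 8 genes. Col2a1 and Col9a3 had no entry. The windows of 3 genes are shown because their genes had different cell distributions below. Col10a1 was highest in hypertrophic chondrocytes as a class. In osteoblasts, Col11a1 and Col11a2 stood further above the hematopoietic level than the other genes, though chondrocytes held more of both. Capitals mark matches to TATAAA (the TATA box), GGGCGG (a GC box), ACAAAG or CATTGT (SOX-like letters) or TGTGGT (RUNX-like letters) on either strand. The windows lie at chr10:34389731-34390030, chr3:114030290-114030589 and chr17:34038888-34039187, all on the plus strand:
Col10a1: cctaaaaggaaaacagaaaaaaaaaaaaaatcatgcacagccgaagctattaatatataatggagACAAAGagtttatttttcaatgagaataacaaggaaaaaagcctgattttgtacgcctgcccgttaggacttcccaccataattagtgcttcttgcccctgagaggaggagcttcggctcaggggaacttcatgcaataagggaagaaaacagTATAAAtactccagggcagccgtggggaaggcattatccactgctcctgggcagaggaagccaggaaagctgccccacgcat
Col11a1: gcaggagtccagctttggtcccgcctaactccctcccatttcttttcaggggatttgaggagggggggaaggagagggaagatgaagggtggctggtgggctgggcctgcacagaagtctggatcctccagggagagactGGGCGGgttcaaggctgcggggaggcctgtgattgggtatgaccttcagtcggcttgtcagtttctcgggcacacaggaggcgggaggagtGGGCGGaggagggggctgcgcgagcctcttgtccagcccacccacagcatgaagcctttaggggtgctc
Col11a2: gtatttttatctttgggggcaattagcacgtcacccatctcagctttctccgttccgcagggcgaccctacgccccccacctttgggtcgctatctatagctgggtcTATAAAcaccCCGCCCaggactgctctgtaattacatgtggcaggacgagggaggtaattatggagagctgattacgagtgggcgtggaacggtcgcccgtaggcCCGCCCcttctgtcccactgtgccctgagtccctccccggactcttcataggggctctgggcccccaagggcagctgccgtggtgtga
In the Col10a1 window TATAAA began 32 bases before the start site and ACAAAG began 185 bases before it. The Col11a1 window held 2 GGGCGG matches. The Col11a2 window held 1 TATAAA, which began 143 bases before its start site, and 2 GGGCGG matches on the opposite strand. That window ends at 34039187, before the Col11a2 gene start of 34039437 given above. Of all 32851 windows listed, 13.6% held TATAAA, 35.7% GGGCGG, 18.7% ACAAAG, 12.6% CATTGT and 16.8% TGTGGT on either strand. A match describes letters in the window and is no measurement of binding.

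The libraries held between 41239842 and 95852254 unique molecular identifiers (UMIs, 1 for each captured transcript). After cell calling and filters 6714 control and 6890 GC callus cells remained, with 3830 control and 4604 GC trabecular cells. Library pairs shared 7 to 15 called barcodes. The GC callus matrix lists 7762 barcodes, the shallowest with 500 UMIs, so RNA outside cells could not be measured there, while the other 3 matrices list between 1017260 and 1469315 barcodes under 100 UMIs that hold a UMI. Cells were clustered without the 8 genes and named from other markers. Callus chondrocytes were 1847 control and 1272 GC cells, in clusters with all 14 markers of the chondrocyte list (among them Acan, Hapln1 and Sox9). Hypertrophic chondrocytes were 732 control and 807 GC cells, in clusters with 9 or 10 of 12 listed markers, Ihh and Panx3 included. A cluster of 1051 cells, 1040 of them GC, held 13 of the 14 chondrocyte markers but osteoblast and neutrophil genes among its leading genes (Col1a1, Ibsp, Ngp) and was left unnamed with 2 smaller ones.

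The 8 genes took 10.3% of chondrocyte UMIs in control and 8.14% in GC, and 6.71% and 4.75% of those of hypertrophic chondrocytes. Col2a1 was the most abundant gene of all in chondrocytes of both libraries. Levels are given as CPM, the UMIs of a gene scaled to a common total of UMIs in its class. Col2a1 stood at 61853 CPM (interval 61783 to 61922) in control and 45954 (45869 to 46038) in GC. In hypertrophic chondrocytes Col2a1 was at 24239 CPM in control and 15462 in GC. The plot of levels by class shows the same order, chondrocytes above hypertrophic chondrocytes, for Col2a1, Col9a1, Col9a2, Col9a3, Col11a1, Col11a2 and Col27a1 in both libraries, and the opposite for Col10a1. Because UMIs were counted near the 3′ end and not per length, these levels compare classes for 1 gene and do not rank the genes as proteins.

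**Figure D1:**
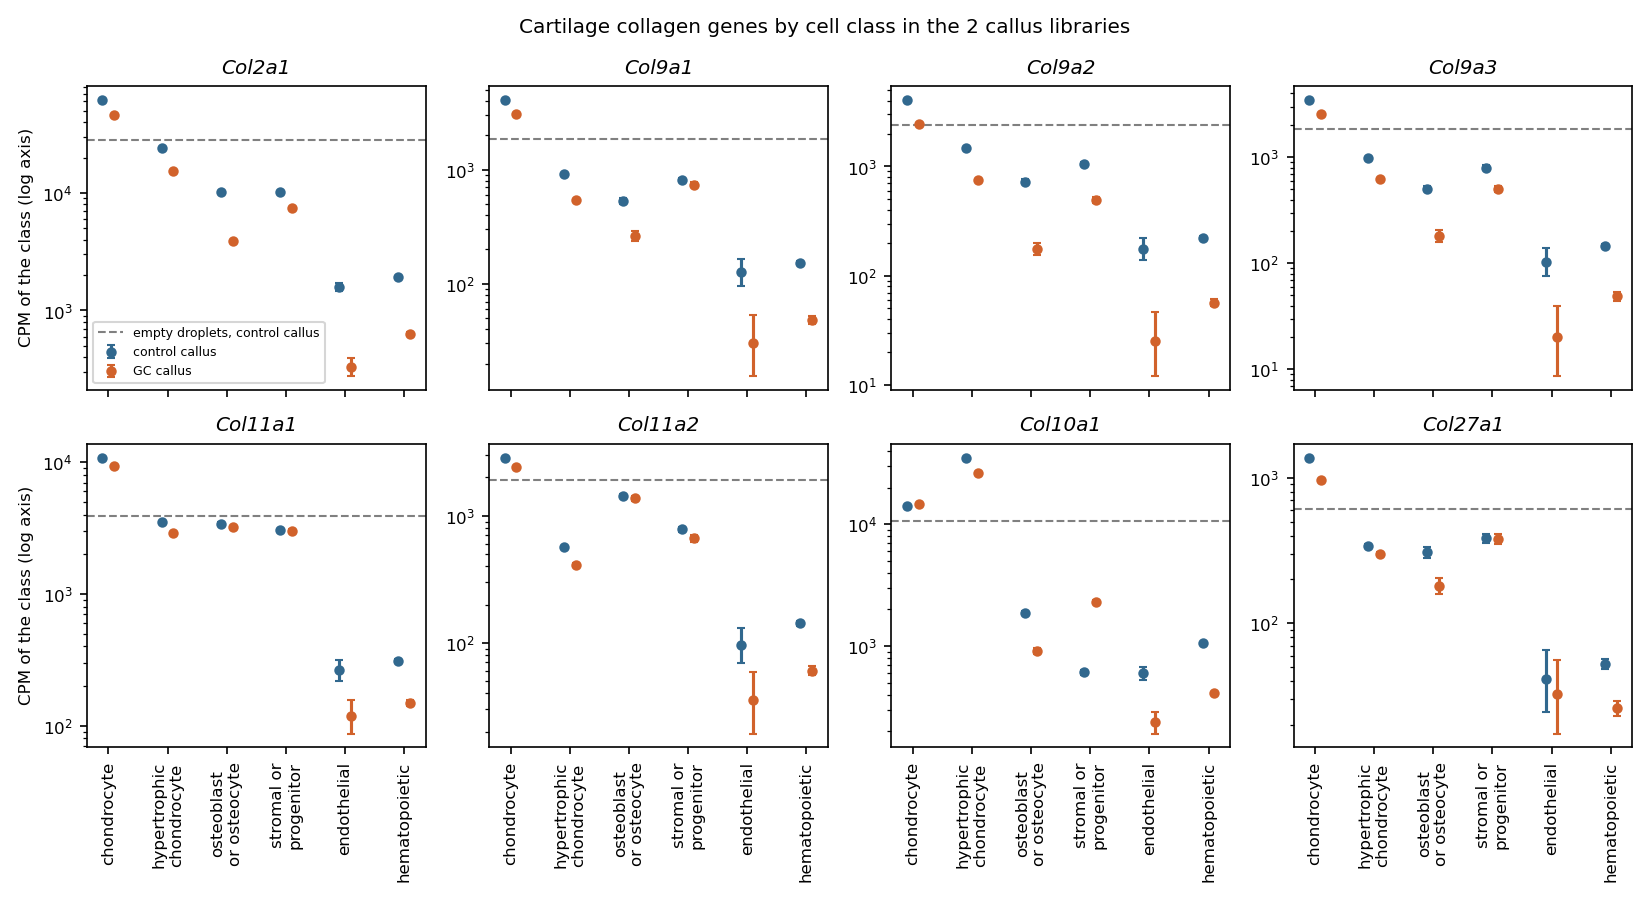
CPM of each class (log axis) for the 8 genes in control (blue) and GC (orange) callus, 1 library each, with 95% exact Poisson intervals; the dashed line is the level in control barcodes under 100 UMIs. Chondrocytes are the highest named class except for Col10a1, where hypertrophic chondrocytes are. Col11a1 and Col11a2 stay high in osteoblasts, though below the dashed line. The points for stromal or progenitor cells are cluster 14.

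The 3 chains of collagen IX were close to each other in control chondrocytes, at 4086 CPM for Col9a1, 4064 for Col9a2 and 3469 for Col9a3. In GC chondrocytes they were at 3065, 2474 and 2553 CPM. Of all collagen IX UMIs in chondrocytes, Col9a2 made up 35.0% (34.9 to 35.1) in control and 30.6% (30.4 to 30.8) in GC. In hypertrophic chondrocytes the Col9a2 share was larger, 43.7% in control and 39.3% in GC. The share of this 1 chain was thus lower in the GC library in both classes, by more than counting error. The lower share was not particular to them. In hematopoietic cells Col9a2 made up 42.6% (41.4 to 43.8) in control and 36.8% (34.5 to 39.3) in GC. In osteoblasts it made up 41.3% and 28.3%. No callus class with shares computed for both libraries had a higher Col9a2 share in GC. In each single hematopoietic class the 2 intervals overlapped, as in neutrophils (39.5 to 44.3 in control and 32.7 to 41.2 in GC). Hematopoietic cells are not a known source of collagen IX, so their shares are not separate cases. The cause of the lower Col9a2 share was not tested.

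Col11a1, which encodes the α1 chain of collagen XI, was at 10786 CPM in control and 9351 in GC chondrocytes, and Col11a2, the α2 chain, at 2846 and 2399 CPM. Col27a1 was the least abundant member by CPM, with 1364 in control and 958 in GC chondrocytes. Both collagen XI genes were much lower in hypertrophic chondrocytes, Col11a1 at 3489 and 2905 CPM and Col11a2 at 569 and 411 CPM.

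Col10a1 reached 35106 CPM (35004 to 35209) in control and 26503 (26409 to 26598) in GC hypertrophic chondrocytes, the rank 2 gene of that class in both libraries. Chondrocytes held 14214 CPM in control and 14632 in GC. That average hid clusters that differed widely. Cluster 8, with Ucma and Cnmd among its leading genes, had 1287 CPM of Col10a1 in control beside 62412 of Col2a1. Control cells of cluster 4 had 9002 CPM of Col10a1 and 66236 of Col2a1. Those of cluster 6 had 34774 of Col10a1 and 59081 of Col2a1, with Col10a1 close to the main hypertrophic cluster. That one, cluster 1, combined 34998 CPM of Col10a1 with 24019 of Col2a1. The other hypertrophic cluster, cluster 12, was shallow, with a median of 913 UMIs, and held 43367 CPM of Col10a1 and 40995 of Col2a1 in 125 control cells. In GC, chondrocyte cluster 6 held Col10a1 at 30133 CPM, above hypertrophic clusters 1 (26615) and 12 (23402). The order of the 2 classes in Col10a1 therefore did not hold for every cluster.

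**Figure D2:**
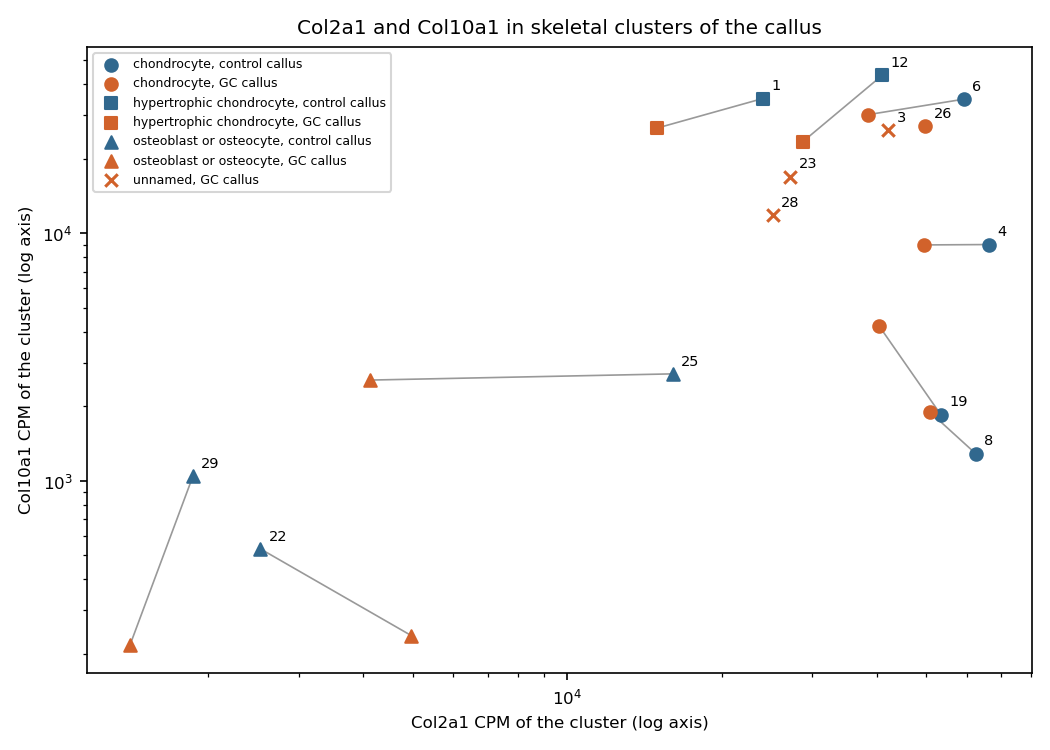
Col2a1 against Col10a1 CPM (log axes) in callus clusters of chondrocytes, hypertrophic chondrocytes and osteoblasts, and in unnamed clusters. Symbols give the class and colours the library, with numbers for clusters and a grey line joining the 2 libraries of a cluster. Cluster 14 is not drawn. Clusters 8, 4 and 6 differ in Col10a1 at high Col2a1, and cluster 1 has high Col10a1 at lower Col2a1.

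Clusters 8, 4, 6 and 1 also came in that order cell by cell, by Col10a1 against Col2a1, after each cell was thinned to 1000 UMIs. Of thinned control cells, 0.141% had more Col10a1 than Col2a1 UMIs in cluster 8, 2.09% in cluster 4, 25.04% in cluster 6 and 62.0% in cluster 1. In GC these shares were 1.29%, 5.11%, 38.3% and 67.1%. For the whole chondrocyte class the share was 8.65% (7.41 to 10.0) in control and 15.5% (13.5 to 17.6) in GC, and the median thinned chondrocyte held 60 Col2a1 and 3 Col10a1 UMIs in control against 43 and 9 in GC. The hypertrophic class had 60.3% (56.4 to 64.1) and 63.3% (59.7 to 66.9), intervals that overlap. Clusters 8 and 4 made up different parts of the class in the 2 libraries, with 714 control against 232 GC cells and 484 against 558 cells, so class values mix a difference in cells with a difference within cells. Thinning left out 9 control and 12 GC chondrocytes, and 85 and 90 hypertrophic chondrocytes.

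Osteoblasts and osteocytes, 87 control and 88 GC cells, had the collagen XI genes further above the hematopoietic level than the other 6 genes. Over the class, Col11a1 was 11.03-fold and Col11a2 10.0-fold that level in control, and 21.5-fold and 22.8-fold in GC. Col2a1 was 5.31-fold and 6.10-fold, Col27a1 5.84-fold and 6.93-fold, and the collagen IX genes between 3.09-fold and 5.45-fold in the 2 libraries. The clusters of the class differed. In cluster 29, with Bglap, Col1a1 and Car3 leading, 15 control cells had Col11a1 at 3706 CPM and Col11a2 at 1951, while Col2a1 was at 1867 CPM. Compared with hematopoietic cells of the same library, Col11a1 there was 12.0-fold higher (11.2 to 12.8) and Col11a2 13.7-fold (12.5 to 14.98), whereas Col2a1 was at 0.967-fold (0.891 to 1.05). The 17 GC cells of that cluster had Col11a1 25.4-fold, Col11a2 28.7-fold and Col2a1 2.22-fold above the hematopoietic level. Cluster 22 had Col11a1 at 3199 CPM in 34 control and 3675 in 46 GC cells, and Col11a2 at 1305 and 1598 CPM. Cluster 25 stood apart, with Col2a1 at 16058 CPM in 38 control and 4121 in 25 GC cells. Over the osteoblast class, Col11a2 was at 1431 CPM in control, above the 569 CPM of hypertrophic chondrocytes, and at 1376 in GC, above 411. After thinning, 61.6% of control and 62.8% of GC osteoblasts had a Col11a2 UMI, beside 14.5% and 7.07% of hematopoietic cells, at median depths of 18114, 12822, 1828 and 1826 UMIs before thinning. Folds over the hematopoietic level, here and below, compare CPM and make no allowance for such differences in depth.

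Cluster 14 (141 control, 122 GC cells) carried 9 of 12 stromal or progenitor markers, but its 10 leading genes, Aspn, Igfbp5 and Ogn among them, held more osteoblast than stromal markers, and it is given by number. Col2a1 stood at 10232 CPM in its control and 7480 in its GC cells, and Col11a1 at 3046 and 3011. Col10a1 went the other way, at 608 and 2322 CPM (ratio 3.82, 3.59 to 4.07). Its control value lay below the hematopoietic level, at 0.577-fold (0.546 to 0.611), and its GC value was 5.64-fold that level. The ratio thus rests on a control value that by CPM was not above the hematopoietic level. That comparison makes no allowance for the UMIs per cell of the classes. Endothelial cells (49 control, 69 GC) were below the hematopoietic level for Col2a1, at 1583 and 333 CPM.

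Hematopoietic cells are not a known source of these collagens, yet 86.5% of thinned control and 49.2% of thinned GC hematopoietic cells held a Col2a1 UMI, against 99.7% and 98.97% of chondrocytes. Without thinning these hematopoietic shares were 96.5% and 76.8%. Control barcodes under 100 UMIs are called empty droplets here, though how many of them are was not tested. These 1469315 barcodes held 5298721 UMIs, with Col2a1 at 27968 CPM, Col10a1 at 10738 and Col11a1 at 3892. The 8 genes together stood at 51240 CPM there. Hypertrophic chondrocytes of the control library were below these barcodes for every gene but Col10a1, with Col2a1 at 24239 CPM. For Col2a1 this depended on the barcodes taken. Those of 10 to 99 UMIs held it at 23130 CPM (22952 to 23309), below the hypertrophic level. Control osteoblasts were below the barcodes under 100 UMIs for all 8 genes, with Col2a1 at 10254 CPM. This held for the collagen XI genes too, as osteoblasts had 87.8% of the empty-droplet level for Col11a1 and 75.6% for Col11a2. Control hematopoietic cells stood at 6.90% of the empty-droplet level for Col2a1 and between 7.54% and 9.81% for the other genes. The proportions were also near those of the empty droplets. Among UMIs of the 8 genes, Col2a1 was 54.6% in empty droplets and 48.2% in hematopoietic cells, and Col11a1 7.60% and 7.74%. Col10a1 was 21.0% in empty droplets and 26.3% in hematopoietic cells. These shares also depended on the barcodes taken, as Col2a1 was 49.9% and Col10a1 25.6% over those of 10 to 99 UMIs. In 7 hematopoietic classes of at least 50 control cells, Col2a1 ran from 1564 CPM in dendritic cells to 2600 in neutrophils. Erythroid cells had Col10a1 at 6411 CPM, against 652 to 1178 in the other classes named here (dendritic, B, T or NK, macrophage, neutrophil and osteoclast). Few erythroid cells carried that level, as 4 of 51 after thinning (7.84%, 2.18 to 18.9) had more Col10a1 than Col2a1 UMIs, and their median of 1 Col10a1 UMI was that of B cells, macrophages and neutrophils.

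**Figure D3:**
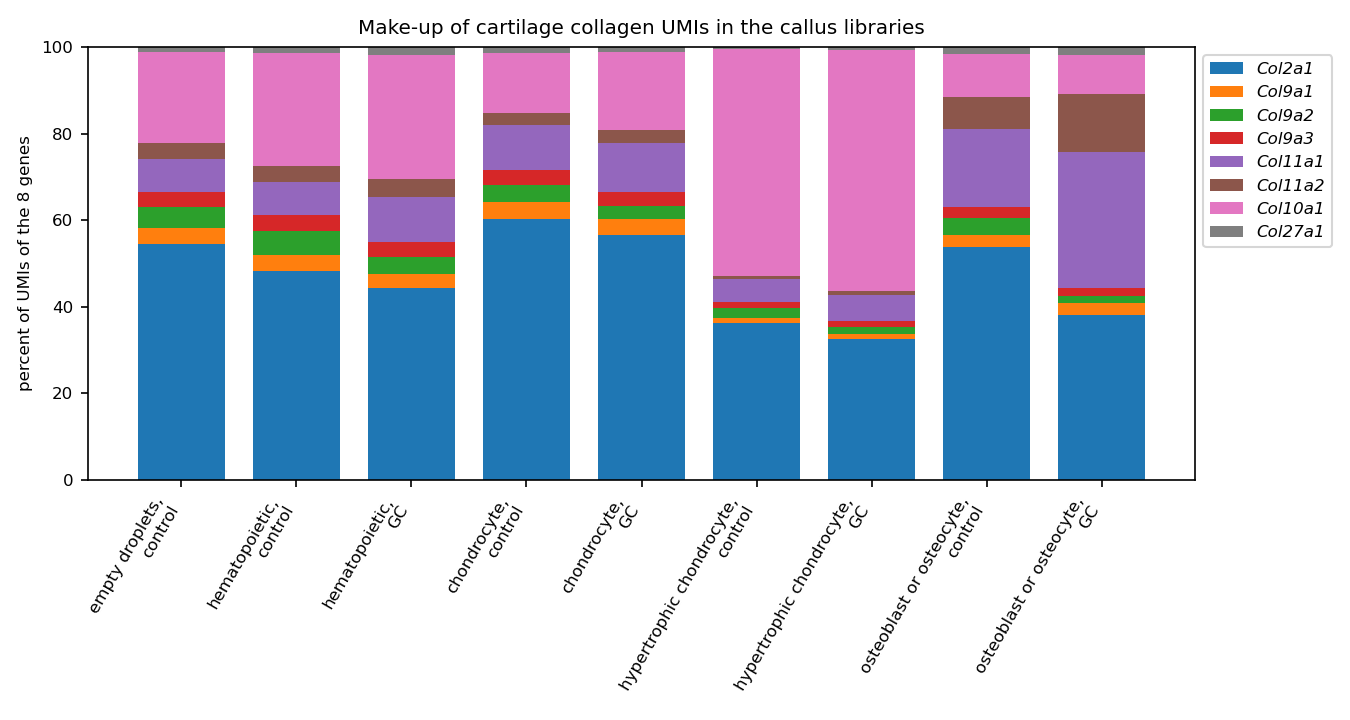
Percent of the UMIs of the 8 genes taken by each gene, in control barcodes under 100 UMIs and in 4 classes of the control and GC callus. The control hematopoietic bar is close to the empty droplets of the same library, and the GC bar has no such reference. Col10a1 takes 52.3% and 55.8% of the hypertrophic bars, and Col11a1 and Col11a2 take a larger part in osteoblasts.

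The levels in chondrocytes were far above those in hematopoietic cells. Col2a1 in chondrocytes was 32.1-fold the hematopoietic level in control and 72.3-fold in GC, Col27a1 26.0-fold and 36.8-fold. The Col10a1 of cluster 8 was an exception, 1.22-fold the hematopoietic level (1.20 to 1.25) in control and 4.60-fold in GC.

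The comparison of GC with control asked how the callus differed under GC at week 2. In chondrocytes 7 of the 8 genes were lower in GC, none of the 8 by 2-fold (of 12982 genes with at least 50 UMIs, 0.547% were at least 2-fold lower and 0.193% at least 2-fold higher). By any amount, 6363 of those 12982 genes were lower. The median log2 ratio of the 8 was -0.42, with 0.01 over all genes measured, on the scale of log2(CPM + 5). Col9a2 was the lowest at -0.71 (ratio 0.609, interval 0.603 to 0.614), followed by Col27a1 at -0.51. Col2a1 was at -0.43, Col9a1 at -0.41 and Col9a3 at -0.44. Col11a1 and Col11a2 were nearer to control, at -0.21 and -0.25. Col10a1 stood at 0.04 (ratio 1.029, 1.025 to 1.034).

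Within clusters the 7 genes other than Col10a1 were lower in GC in each of the 4 chondrocyte clusters with cells of both libraries, except that Col11a1 in cluster 19 had an interval that spans 1 (ratio 0.987, 0.953 to 1.02). Col2a1 had log2 ratios of -0.42 in cluster 4, -0.62 in cluster 6, -0.30 in cluster 8 and -0.40 in the cycling cluster 19. Col9a2 had -0.67, -0.72, -0.70 and -0.71. Col10a1 differed between clusters, with -0.01, -0.21, 0.56 and 1.19. In clusters 8 and 19, where Col10a1 was higher in GC, its levels were low, 1287 against 1893 CPM and 1850 against 4237 CPM. When the hematopoietic level of each library was subtracted, the median of the 8 genes in chondrocytes was -0.39 and Col10a1 was at 0.11. Cluster 26 held 63 GC and no control cells, with the endothelial genes Cdh5 and Fabp4 among its leading genes beside Acan and Hapln1. Without it, the median was -0.43 and Col10a1 was at 0.03.

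**Figure D4:**
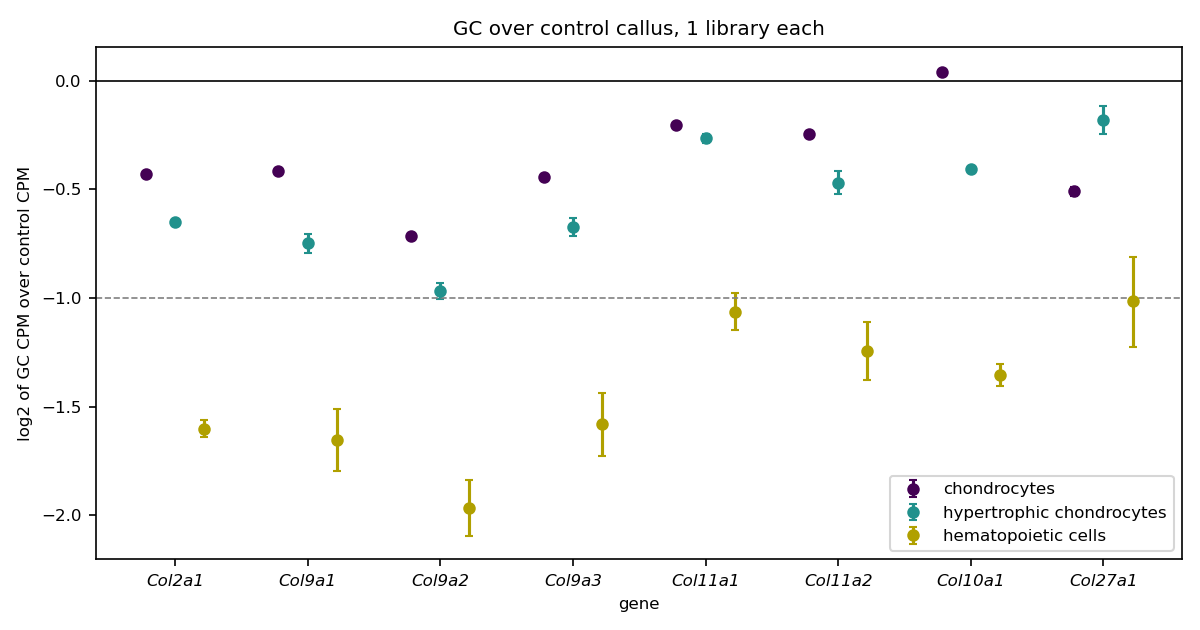
Log2 ratio of CPM in GC over control callus for each gene in chondrocytes, hypertrophic chondrocytes and hematopoietic cells, with 95% exact conditional intervals and no pseudocount; the dashed line marks a 2-fold lower level. Chondrocyte and hypertrophic points lie above the dashed line and hematopoietic points below it, with Col27a1 close to it.

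Hypertrophic chondrocytes had all 8 genes lower in GC, none by 2-fold over the class (0.313% of 10856 genes were at least 2-fold lower and 0.332% at least 2-fold higher). By any amount, 5386 of those 10856 genes were lower. The median log2 ratio of the 8 was -0.56, with 0.00 over all genes. Col9a2 was again the lowest at -0.96, followed by Col9a1 at -0.74, Col9a3 at -0.67 and Col2a1 at -0.65. Col10a1 was at -0.41 (ratio 0.755, 0.751 to 0.758), Col11a2 at -0.46, Col11a1 at -0.26 and Col27a1 at -0.18. Over the alternatives Col27a1 ran from -0.41 with no doublets removed to -0.07 with the hematopoietic level subtracted, and Col11a2 from -0.68 to -0.28 under the same settings. Mmp13, the collagenase of hypertrophic cartilage, was lower in the same cells, with 4300 CPM in control and 2015 in GC (log2 ratio -1.09).

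Hematopoietic cells had 7 of the 8 genes at least 2-fold lower in GC (0.803% of 11327 genes were at least 2-fold lower and 0.38% at least 2-fold higher). The count was 0 with no doublets removed, 4 at Leiden resolution 2 and 4 with means of per-cell CPM. Their median was -1.42, against -0.04 over all genes. Col2a1 was at 1930 CPM in control and 636 in GC, Col9a2 at 221 and 56.6, and Col10a1 at 1053 and 412. Col27a1, at 52.6 and 26.0 CPM, missed the 2-fold limit on the log2(CPM + 5) scale, at -0.89. Col2a1 was lower in the 6 hematopoietic classes for which the ratio was computed, at -1.67 in macrophages, -1.37 in neutrophils, -1.47 in B cells, -1.43 in T or NK cells, -1.67 in dendritic cells and -2.24 in osteoclasts. Acan, Comp and Hapln1, made by chondrocytes, were also lower there, Hapln1 at 160 CPM in control and 47.9 in GC. The level outside cells could not be set beside this in GC callus, and its part in the hematopoietic difference was not tested.

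Osteoblasts differed by gene. Col11a1 was at 3419 CPM in control and 3196 in GC (log2 ratio -0.10) and Col11a2 at 1431 and 1376 (-0.06, ratio interval 0.906 to 1.02), while Col2a1 was at -1.40 and Col9a2 at -2.03. The clusters disagreed on Col2a1, which was at -1.96 in cluster 25, 0.98 in cluster 22 and -0.41 in cluster 29. Control Col2a1 in clusters 22 and 29 was at 2527 and 1867 CPM, beside 1930 CPM in control hematopoietic cells. Col9a2 was at -2.10, -0.80 and -0.59 in clusters 25, 22 and 29. Cluster 25 held 38 of the 87 control and 25 of the 88 GC cells, so class values also mix a difference in cells. The clusters disagreed on the collagen XI genes as well, so the class values average different directions. In the same order of clusters, Col11a1 was at -0.80, 0.20 and 0.02, and Col11a2 at -0.86, 0.29 and -0.17.

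Genes that act on these collagens were counted from fixed lists in chondrocytes. Of 9 measured regulators, which include Sox9 and Runx2, 6 were lower and none reached 2-fold in either direction (median -0.27), where 6363 of all 12982 genes measured were lower by any amount. Sox9, the factor that switches on the collagen II program, was at 1501 CPM in control and 1243 in GC. Of 24 folding and processing genes none reached 2-fold (median 0.02). The lysyl oxidases Lox, Loxl2 and Loxl3, which crosslink collagens, were at log2 ratios of 0.74, 0.59 and 0.37, while Loxl4 was at -0.18. The prolyl hydroxylase subunit P4ha1 was at -0.53. Of 12 matrix partners, 8 were lower (median -0.24), and Epyc, which encodes a small leucine-rich proteoglycan, was lower by over 2-fold, at 95.1 CPM in control and 30.4 in GC. Of 12 cleavage and receptor genes none reached 2-fold (median -0.23).

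Of the 7 fibrillar collagens of bone and connective tissue, 2 were lower in GC chondrocytes and 1 was over 2-fold higher (median 0.21). Col1a1, a chain of collagen I, was at 4143 CPM in control and 8901 in GC chondrocytes (log2 ratio 1.10), and Col1a2 at 8500 and 12299. In hypertrophic chondrocytes Col1a1 was at 1530 and 2193 CPM, and in hematopoietic cells at 286 and 318. Thus Col1a1 and Col2a1 had opposite signs in chondrocytes.

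In hypertrophic chondrocytes, 5 of 9 regulators were lower (median -0.01), 8 of 23 processing genes (median 0.06), 7 of 12 matrix partners (median -0.21) and 8 of 12 cleavage and receptor genes (median -0.39), where 5386 of all 10856 genes were lower. Past 2-fold were Matn1, a cartilage matrix protein, at -1.39, Mmp13 and Mmp9, a gelatinase, at -1.75. The 7 bone and connective tissue collagens had a median of 0.15, with 3 lower. In hematopoietic cells 0.803% of all 11327 genes measured were at least 2-fold lower. None of 7 regulators was 2-fold lower there (median -0.54), against 3 of 21 processing genes (-0.27) and 5 of 11 matrix partners (-0.95). Also 2-fold lower were 1 of 10 cleavage and receptor genes (-0.05) and 1 of 6 bone and connective tissue collagens (-0.37).

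Across 30 callus clusters of at least 30 cells, both libraries pooled, the genes most like Col2a1 by Pearson correlation of log2(CPM + 5) were Hapln1 (0.995), Acan (0.984), Snorc (0.978), Pak3 (0.977) and Comp (0.974). Those most like Col10a1 were Aldh1a3 (0.938), Bmp6 (0.934), Scube3 (0.933), Gdf5 (0.932) and Nog (0.922), and those most like Col27a1 were Hapln1, Fam180a, Comp, Cnmd and Trpv4 (0.968 to 0.975). Col2a1 correlated with the collagen IX genes at 0.989 to 0.993, with Col11a2 at 0.903 and with Col10a1 at 0.824, and Col11a1 with Col11a2 at 0.988. Clusters share libraries, free RNA and genes used for clustering, and these values are a description.

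Trabecular bone had almost none of these transcripts. The 8 genes together gave 147 UMIs in the whole control library (3.56 CPM) and 496 in the GC library (10.8 CPM), and Col10a1 gave 4 and 33. The Col10a1 UMIs were all in barcodes under 100 UMIs. No Col10a1 UMI was found in 3813 control or 4561 GC hematopoietic cells, which allows up to 0.0878 and 0.0798 CPM. The 17 control stromal cells had 23 UMIs of Col11a1 (184 CPM, 117 to 276), 17 of them in 1 cell, and 11 of Col27a1. The 43 GC stromal cells had 152 of Col11a1 (572 CPM, 484 to 670), 139 of them in 1 cell, and all 56 of their Col2a1 and all 55 of their Col11a2 UMIs sat in a single cell. No statement on GC in trabecular stroma could rest on so few cells. In hematopoietic cells Col11a2 had 23 UMIs in control and 59 in GC, spread over 23 and 55 cells. In barcodes under 100 UMIs, Col2a1 was at 5.46 CPM in control and 20.8 in GC trabecular bone, from 25 and 73 UMIs. Only 1 and 2 of these UMIs were in barcodes of 10 to 99 UMIs, where Col2a1 was at 0.524 and 1.11 CPM.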

How the data were processed

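The deposited files hold raw UMI counts per gene and barcode, made by the authors with Cell Ranger. The submitters' notes name Cell Ranger 5.0.1, Seurat 3.2.0 and mm10, while the file headers name version 4. The labels name a 10x Kit v2. That version was not checked against the 6794880 barcodes listed in each matrix other than GC callus. Cells were called by a UMI cutoff (0.1 of the 99th percentile of the top 3000 barcodes) and, from 500 UMIs, a Monte Carlo test against empty droplets (10000 draws, false discovery rate 0.01). All listed barcodes of GC callus were kept. Cells under 200 genes or over 10% mitochondrial UMIs and predicted doublets (0.8% per 1000 cells, 125 to 428 per library) were removed. Each tissue was clustered (30 components of 2000 variable genes without the 8 members, 15 neighbours, Leiden resolution 1, with clusters carrying markers of a second class divided again, leidenalg 0.10.2, igraph 0.11.9, scipy 1.17.1). Members and lists were chosen with earlier results of these data known, and the rule that names clusters was revised after clusters and their levels had been seen. Named genes were the 8 members, list genes past 2-fold, with further list genes chosen as examples after their values were seen, and the 5 most similar genes.

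UMIs were summed per class and library and scaled to CPM. Intervals are exact Poisson (CPM), Clopper-Pearson (shares) and conditional (ratios). Genes with at least 50 UMIs over both libraries were compared by log2((GC + 5)/(control + 5)). A gene is called lower at any value below 0 and 2-fold lower at -1 or below. A count of 0 allows 3 UMIs. The ratio was tested on simulated data. Alternatives covered cell calling, filters, doublets, clustering, weighting, thinning, pseudocounts, minimum counts, scaling and fold. Of these, 4 were chosen after seeing the data.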

Additional observations from a re-analysis of the deposited data

Results flagged for a closer look

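Col10a1 was flagged because its GC over control ratio had intervals on opposite sides of 1 in the 2 chondrocyte classes, with a log2 ratio of 0.042 in chondrocytes and -0.41 in hypertrophic chondrocytes. The difference between the classes was not tested, and the chondrocyte value ran from -0.0076 with at most 5% mitochondrial UMIs to 0.198 with the largest unnamed cluster counted as chondrocytes, an alternative chosen after seeing the data.

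The largest unnamed callus cluster was flagged because it lies outside the comparisons and is nearly all GC. Its 1040 GC cells had a median of 2628 UMIs and held Col2a1 at 42117 CPM, Col9a1 at 3809, Col11a1 at 8540, Col10a1 at 26149 and Col27a1 at 1175, and after thinning 23.6% of them had more Col10a1 than Col2a1 UMIs. Only 11 control cells fell in it, and what the cluster is was not tested.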

How the results depend on the processing

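No paired analysis was possible because each group has 1 library. In chondrocytes no gene reached 2-fold in any alternative that kept that fold, and 1 gene reached 1.5-fold. There, 7 genes were lower in GC in all 19 alternatives. Col10a1 was higher in all but 2, at -0.0076 with at most 5% mitochondrial UMIs and -0.00086 at Leiden resolution 0.5. The median of the 8 genes was -0.63 at resolution 0.5, where no cluster was named hypertrophic. No hypertrophic value could be had there or with the UMI cutoff alone. In hypertrophic chondrocytes the count at 2-fold was 1 in place of 0 with no doublets removed and at resolution 2. It was also 1 with the members kept in clustering and without clusters under a median of 5000 UMIs. At 1.5-fold the count was 4. The share of all genes past 1.5-fold is not given here, so the counts at that fold, in both classes, have no background beside them. All 8 genes were lower in hypertrophic chondrocytes in all 17 alternatives. The 19 and 17 alternatives include some that leave these ratios unchanged, such as the change of fold and of minimum count. They are not separate pieces of support. In hematopoietic cells the count of 7 was 0 with no doublets removed, 4 at resolution 2 and 4 with means of per-cell CPM. The causes were not tested. The Col2a1 level of empty droplets was 23130 CPM over barcodes of 10 to 99 UMIs, and the share of control hematopoietic cells with a Col2a1 UMI was 96.5% without thinning.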
